A study of Mus musculus with 19 samples.

Results

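The proteasome subunits are the genes whose symbol begins with PSM, followed by a letter from A to G and a number, and 48 of the 31276 genes in the count table met that rule. They cover the alpha ring (PSMA) and beta ring (PSMB) of the 20S core, the ATPases (PSMC) and other subunits (PSMD) of the 19S particle, the activators (PSME), the regulator PSMF1 and the assembly chaperones (PSMG). The rule uses symbols and no measured value, although it was set with earlier results of these data known. RNA was sequenced from tumours that HCC827 cells formed in immunodeficient NCG mice; HCC827 is a human line of non-small cell lung cancer with a mutated EGFR. The combination group (n = 5) received osimertinib, an inhibitor of mutant EGFR, with 6-thio-dG, a nucleoside analogue that telomerase builds into telomeres. The osimertinib group (n = 5) and the thio group (6-thio-dG, n = 4) received 1 agent each, and the control group (n = 5) received the solvent DMSO. All groups share the cell line and the host, so they describe 1 tumour line in mice that lack most immune cells. The labels give no dose, time or animal age. Nor do they tie each library to an animal of its own, and p-values measure the spread between these samples.

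The proteasome is the protease complex that degrades proteins tagged with ubiquitin. Its 20S core cuts proteins inside a barrel of alpha and beta rings, and the 19S particle binds the tagged protein, removes the ubiquitin and unfolds the chain with ATP. In cells exposed to interferon gamma, the catalytic subunits PSMB6, PSMB7 and PSMB5 can be replaced by PSMB9, PSMB10 and PSMB8, which makes the immunoproteasome and changes the peptides that class I MHC molecules present.

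Total counts were 17731752 to 35397346 per library, and 46 of the 48 members had enough counts to be tested. PSMA8, a testis form of an alpha subunit, and PSMB11, the thymus form of a catalytic subunit, had at most 2 counts in any library. The 2 libraries with the lowest scaling factors were thio 3 (0.893) and combination 5 (0.899). Combination 5 had also the fewest counts and the highest share of counts from 13 genes of the mitochondrial genome (30.2%), followed by combination 3 (20.9%). That share was 11.0 to 30.2% in combination, 8.62 to 16.0% in osimertinib, 5.27 to 7.87% in thio and 7.04 to 9.29% in control libraries, so combination and control did not overlap. The results for the members are therefore given also without combination 3, combination 5 and thio 3, and with the mitochondrial share as a covariate, which overlaps with the treatment. Values of genes outside the members and the ratios of counts are not given under these settings. As a check of the label, the summed level of 9 epithelial markers was 14900 to 22190 CPM in combination and 18630 to 24130 CPM in control libraries. CPM are counts relative to the library size after TMM scaling, and they compare libraries for 1 gene, not genes with each other.

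In the combination tumours, 18 of 46 proteasome genes fell against control (39.1% of members tested). Genes of the 19S particle made up most of them. The 2 that rose were an assembly chaperone and an alpha subunit. Over all 16704 genes tested, 23.1% fell and 25.7% rose in this comparison (48.7% called in all), so the members' share lower was above that of all genes and the share higher (4.35%) below it. The median log2 fold change was -0.26 over the members and 0.02 over all genes, and 37 of 46 members were negative. The groups did not overlap, with every combination library below every control, for 9 of 46 members (19.6%), against 12.3% of all genes, and 0 members lay above control in every library, against 14.5%.

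**Figure D1:**
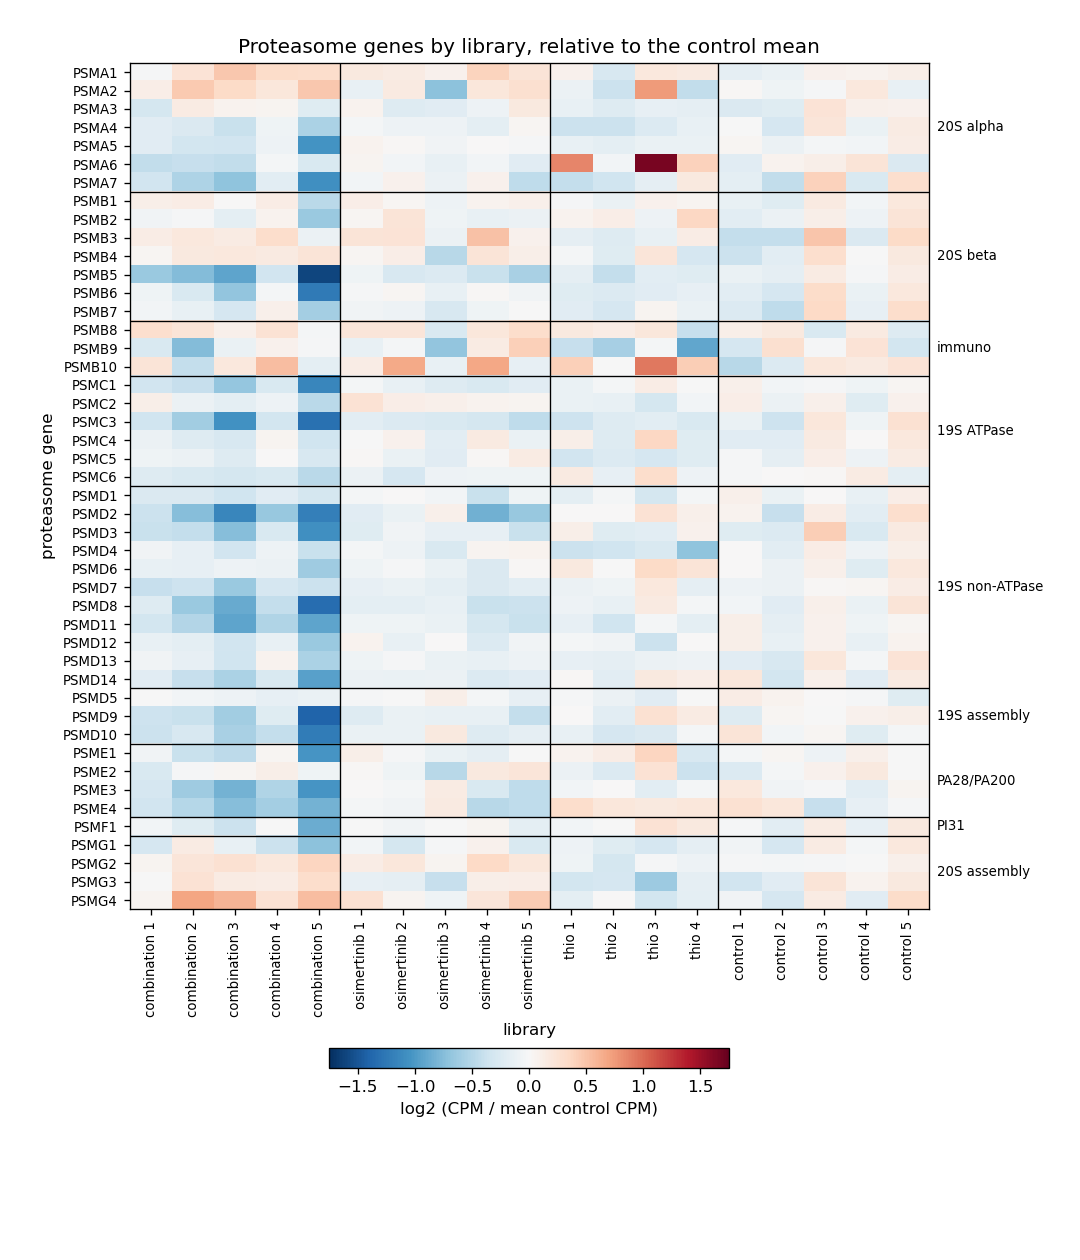
Level of each of the 46 tested proteasome genes (rows, by subcomplex) in each of the 19 libraries (columns), as the log2 ratio of its CPM to the mean control CPM; blue is lower and red is higher than the control mean. The blue cells gather in the 19S rows of the combination libraries and are deepest in combination 5, while PSMA6 in thio 3 is the reddest cell.

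The 17 PSMC and PSMD genes of the 19S particle were all negative in combination against control, and 10 of them fell. SEM1, a 19S subunit whose symbol lies outside the rule, rose and is described with the partners of the proteasome. PSMD2, a scaffold of the 19S base that receives ubiquitin receptors and shuttle factors, had 206, 159, 122, 169 and 117 CPM in the combination libraries, against 279, 202, 294, 235 and 328 CPM in the control libraries. Combination 1 reached just above control 2, and the other combination libraries lay below all controls. The log2 fold change was -0.79 ± 0.18 (SE, adjusted p = 0.00169). PSMD11, a lid subunit that joins lid and base, had 86.1, 75.7, 57.0, 74.6 and 57.1 CPM in combination, against 116, 96.7, 114, 103 and 110 CPM in control libraries. These groups did not overlap, and its log2 fold change was -0.62 ± 0.12 (adjusted p = 5.00e-04), the smallest p among the members.

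The other called PSMC and PSMD genes of the particle lay between -0.68 for PSMC3 and -0.27 for PSMD1. They include the ATPases PSMC3 (-0.68 ± 0.16), PSMC1 (-0.53 ± 0.13) and PSMC6, the lid subunits PSMD8 (-0.65 ± 0.15), PSMD7 (-0.41 ± 0.10) and PSMD3 (-0.55 ± 0.15), and the lid deubiquitinase PSMD14 (-0.45 ± 0.13, adjusted p = 0.00827). PSMD8 had 88.7 to 192 CPM in combination and 195 to 264 CPM in control libraries. Of the chaperones that assemble the 19S base, PSMD10 (-0.54 ± 0.14, adjusted p = 0.00417) and PSMD9 (-0.53 ± 0.16) fell, and PSMD5 was at -0.08 ± 0.09 (adjusted p = 0.468).

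Of the 14 constitutive genes of the 20S core, 4 fell and 1 rose. The catalytic subunit PSMB5, which carries the chymotrypsin-like site, had the lowest fold change of all members. It had 43.9, 40.4, 36.1, 54.7 and 22.5 CPM in the combination libraries, 65.1, 56.8, 58.5, 52.3 and 46.5 CPM in osimertinib, 61.5, 51.7, 60.3 and 59.2 CPM in thio, and 63.6, 61.7, 75.7, 67.7 and 75.0 CPM in control libraries. All combination libraries lay below all controls, while combination 4 lay within the osimertinib range. PSMB5 averaged 39.5 ± 11.8 CPM in combination and 68.7 ± 6.40 CPM in control tumours (SD, n = 5 each), a log2 fold change of -0.80 ± 0.16 (adjusted p = 7.35e-04). The other 2 constitutive catalytic genes did not pass the test: PSMB6, with the caspase-like site, was at -0.39 ± 0.17 (adjusted p = 0.0609) and PSMB7, with the trypsin-like site, at -0.18 ± 0.15 (adjusted p = 0.329). In the alpha ring, which forms the gate of the core, PSMA7, PSMA5 and PSMA4 fell by 0.54, 0.36 and 0.28 on the log2 scale. PSMA1 was called higher (0.27 ± 0.11) at an adjusted p of 0.0497, and that call was lost under 8 of 12 alternatives.

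Of the activators, which open the core without ubiquitin, 2 of 4 fell. PSME3, the nuclear PA28 gamma, had 186, 148, 128, 158 and 111 CPM in combination, against 260, 218, 225, 201 and 236 CPM in control libraries. The groups did not overlap, and the log2 fold change was -0.64 ± 0.13 (adjusted p = 9.14e-04). PSME4, the PA200 cap, had 87.4, 78.0, 65.7, 72.8 and 62.2 CPM in combination, against 133, 127, 83.3, 99.6 and 109 CPM in control libraries, with combination 1 above control 3 (-0.59 ± 0.14, adjusted p = 0.00243). PSME1 and PSME2, which together form a PA28 cap and respond to interferon gamma, were at -0.34 ± 0.15 (adjusted p = 0.0747) and -0.04 ± 0.14 (adjusted p = 0.828). PSMF1, the core regulator PI31, was at -0.27 (adjusted p = 0.0986).

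The assembly chaperones of the 20S core went the other way or were not called. PSMG4 had 45.0, 70.6, 66.0, 52.2 and 63.5 CPM in combination, against 41.9, 35.5, 48.0, 38.1 and 54.4 CPM in control libraries. It rose by 0.45 ± 0.14 on the log2 scale (adjusted p = 0.0127), although combination 1 and combination 4 lay within the control range. PSMG2 and PSMG3 were at 0.22 and 0.17 and PSMG1 at -0.25, none of them called.

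**Figure D2:**
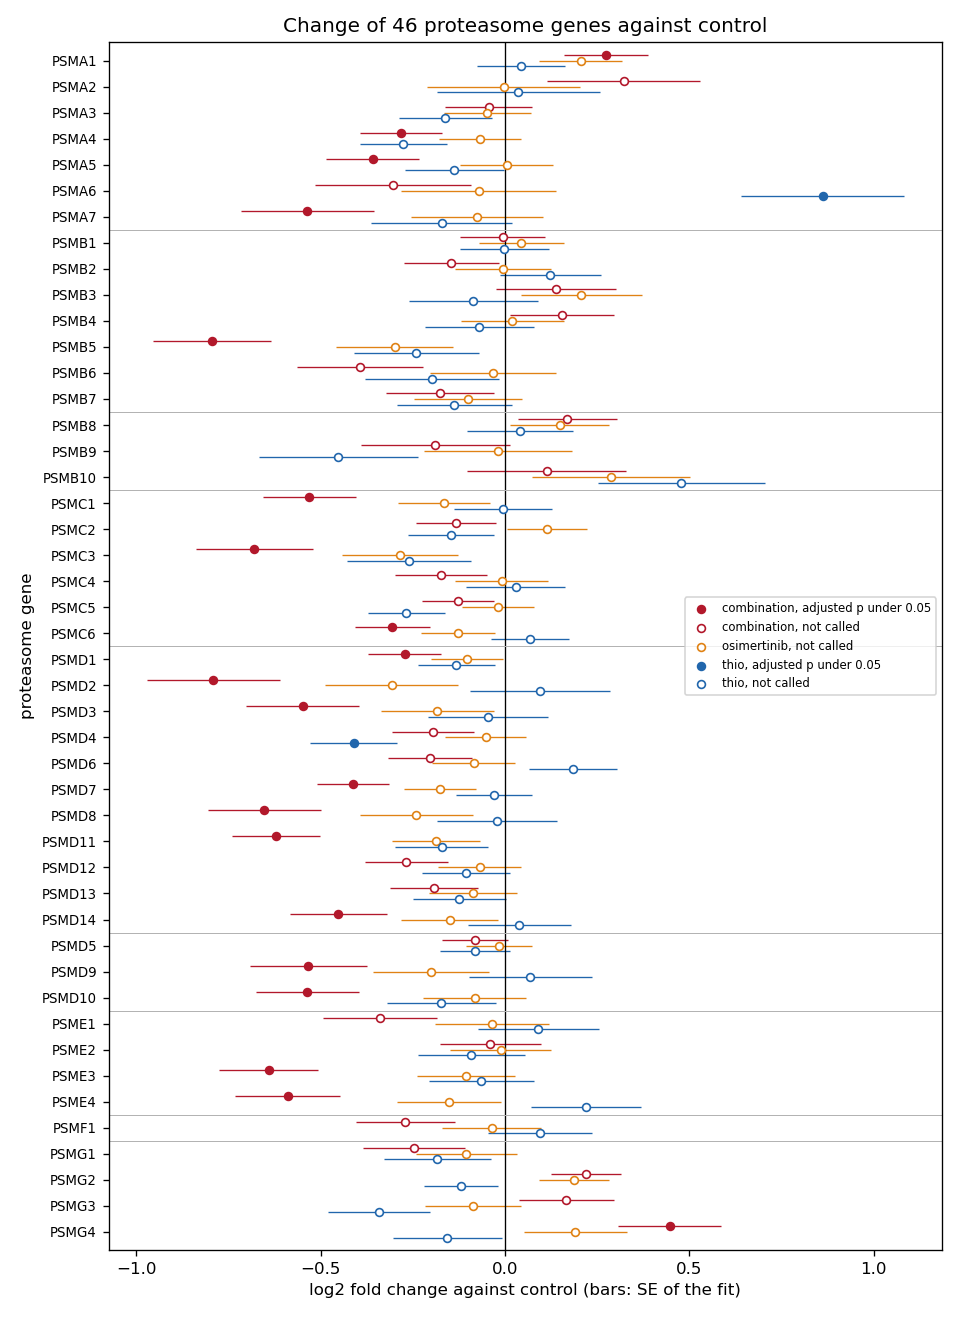
Log2 fold change of each of the 46 tested members against control in the combination, osimertinib and thio groups (points, with SE of the fit as bars); filled points have an adjusted p under 0.05. The filled combination points lie at negative values except PSMG4 and PSMA1, no osimertinib point is filled, and thio has 2, PSMA6 and PSMD4.

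The size of this decrease moved with library measures. Among the 5 combination libraries, 31 of 46 members were lowest in combination 5 and 9 in combination 1. The mean log2 CPM of the 43 constitutive members was 6.39, 6.37, 6.22, 6.45 and 5.97 in combination 1 to combination 5, against 6.498, 6.40, 6.68, 6.496 and 6.67 in control 1 to control 5. Combination 4 lay above 1 control library, control 2, and combination 5, which had the highest mitochondrial share, lay lowest. Without combination 3, combination 5 and thio 3, 11 members fell and none rose (14.0% and 14.9% of all genes), and PSMB5 was at -0.59 (adjusted p = 0.00474), PSMD11 at -0.47 (0.00533) and PSME3 at -0.49 (0.0108). PSMG4 was not called there (0.34, adjusted p = 0.119). With the mitochondrial share as a covariate, 0 of 46 members and 542 genes were called, 2 members had an unadjusted p under 0.05, and PSMB5 was at -0.27 (adjusted p = 0.306). The mitochondrial share and the treatment cannot be told apart in full, because the share did not overlap between combination and control. In bulk tumours, fewer cells of a type and less RNA per cell cannot be told apart either.

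**Figure D3:**
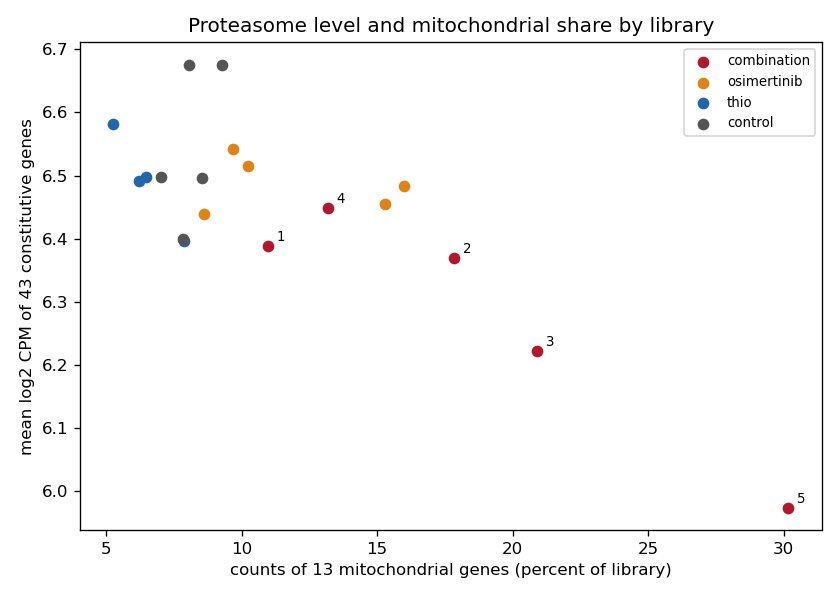
Mean log2 CPM of the 43 constitutive proteasome genes (vertical) against the share of counts from 13 mitochondrial genes in percent (horizontal), 1 point per library, with the combination libraries numbered. Combination 5, at 30.2%, has the lowest mean, 5.97, and the control libraries lie between 7.04 and 9.29%.

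The summed level of 14 fibroblast markers was 647 to 1346 CPM in combination, 1257 to 1969 CPM in osimertinib, 1543 to 2040 CPM in thio and 1626 to 2366 CPM in control libraries, so combination lay below control in every library. FN1 and COL1A1 made up most of it, with medians of 1012 and 389 CPM over the 19 libraries. Of 13 fibroblast markers tested, 8 fell and 2 rose in combination against control (23.1% and 25.7% of all genes), and 6 fell and 1 rose in thio against control (4.63% and 9.27% of all genes). FN1, which encodes fibronectin, reached 1696 CPM in 1 library, and DCN, which encodes decorin, was at 0 in 6. The summed level of 12 skeletal muscle markers was 140 to 819 CPM in combination, 85.9 to 168 CPM in osimertinib, 104 to 167 CPM in thio and 63.1 to 996 CPM in control libraries, and among the combination libraries it was highest in combination 5. Of these 12 markers, 11 were negative in osimertinib against control (median of -2.23), with 2 called lower (1.46% of all genes). In thio against control 11 were negative (median of -1.86), with 1 called lower (4.63% of all genes). In combination against osimertinib 11 were positive (median of 1.43), with 1 called higher (8.09% of all genes). In combination against control 10 were negative (median of -0.485), with 2 called lower and 1 higher (23.1% and 25.7% of all genes). The sum of 11 leukocyte markers was at most 22.2 CPM in any library. That of 9 lymphocyte markers was 0.776 to 1.71 CPM in combination and 0.401 to 0.620 CPM in control libraries, and none of these markers was at 0 in all libraries. The symbols are human and how mouse reads were handled was not given, so these sums do not measure the number of host cells. Whether such cells had a part in the proteasome values was not tested.

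The immunoproteasome genes did not follow PSMB5, and 0 of 3 was called in any comparison. PSMB8 had 126, 121, 110, 123 and 101 CPM in the combination libraries, 120, 120, 85.8, 119 and 128 CPM in osimertinib, 116, 113, 119 and 78.1 CPM in thio, and 111, 116, 85.9, 115 and 88.4 CPM in control libraries. The 4 groups overlapped, and the log2 fold change in combination against control was 0.17 ± 0.14 (adjusted p = 0.309). PSMB9 had 13.2, 9.36, 14.6, 16.7 and 15.7 CPM in combination, 14.4, 15.5, 9.80, 17.4 and 21.1 CPM in osimertinib, 12.0, 10.6, 15.4 and 8.44 CPM in thio, and 12.9, 19.3, 15.6, 18.7 and 12.7 CPM in control libraries. Its groups overlapped as well (-0.19 ± 0.20 in combination, -0.02 ± 0.20 in osimertinib and -0.45 ± 0.22 in thio, the last at an adjusted p of 0.161). PSMB10 averaged 13.9 ± 3.53 CPM in combination, 15.8 ± 4.51 CPM in osimertinib, 18.0 ± 4.80 CPM in thio and 12.9 ± 2.71 CPM in control tumours (SD, n = 5, 5, 4 and 5), and its highest value, 24.5 CPM, was that of thio 3.

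Within a library, the count of each immunoproteasome gene can be set against that of the constitutive gene it replaces. The log2 ratio of PSMB8 to PSMB5 was 1.52, 1.58, 1.60, 1.17 and 2.17 in combination, 0.88, 1.08, 0.55, 1.18 and 1.46 in osimertinib, 0.92, 1.13, 0.97 and 0.40 in thio, and 0.81, 0.91, 0.18, 0.77 and 0.24 in control libraries. Every combination library lay above every control, and combination averaged 1.61 ± 0.36 against 0.58 ± 0.34 in control (SD, n = 5 each), a difference of 1.03. That difference was 0.45 for osimertinib and 0.27 for thio, and both of these groups overlapped with control. Combination 5, with the highest mitochondrial share (30.2%), also had the highest ratio. In its group, combination 4 (13.2%) was lowest, below combination 1 (11.0%). The highest osimertinib ratios were those of osimertinib 5 (15.3%) and osimertinib 4 (16.0%), which had the highest shares of that group. The part of that share in the ratio was not tested, nor how often other pairs of genes separate the groups. The ratio of PSMB9 to PSMB6 differed from control by 0.25 in combination, -0.02 in osimertinib and -0.28 in thio, with group SDs of 0.38 to 0.67. That of PSMB10 to PSMB7 differed by 0.26, 0.34 and 0.58 in the same order, with group SDs of 0.23 to 0.40. The PSMB10 to PSMB7 ratio was -2.88 to -2.29 in thio and -3.41 to -2.87 in control libraries, so thio 2 lay just within the control range. These differences are descriptions without a test. A change of the PSMB8 to PSMB5 ratio shows that the 2 genes did not change alike and does not by itself say which of them moved. Tested singly by edgeR in combination against control, PSMB5 fell (-0.80, adjusted p = 7.35e-04), while PSMB8 was not called (0.17, adjusted p = 0.309).

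**Figure D4:**
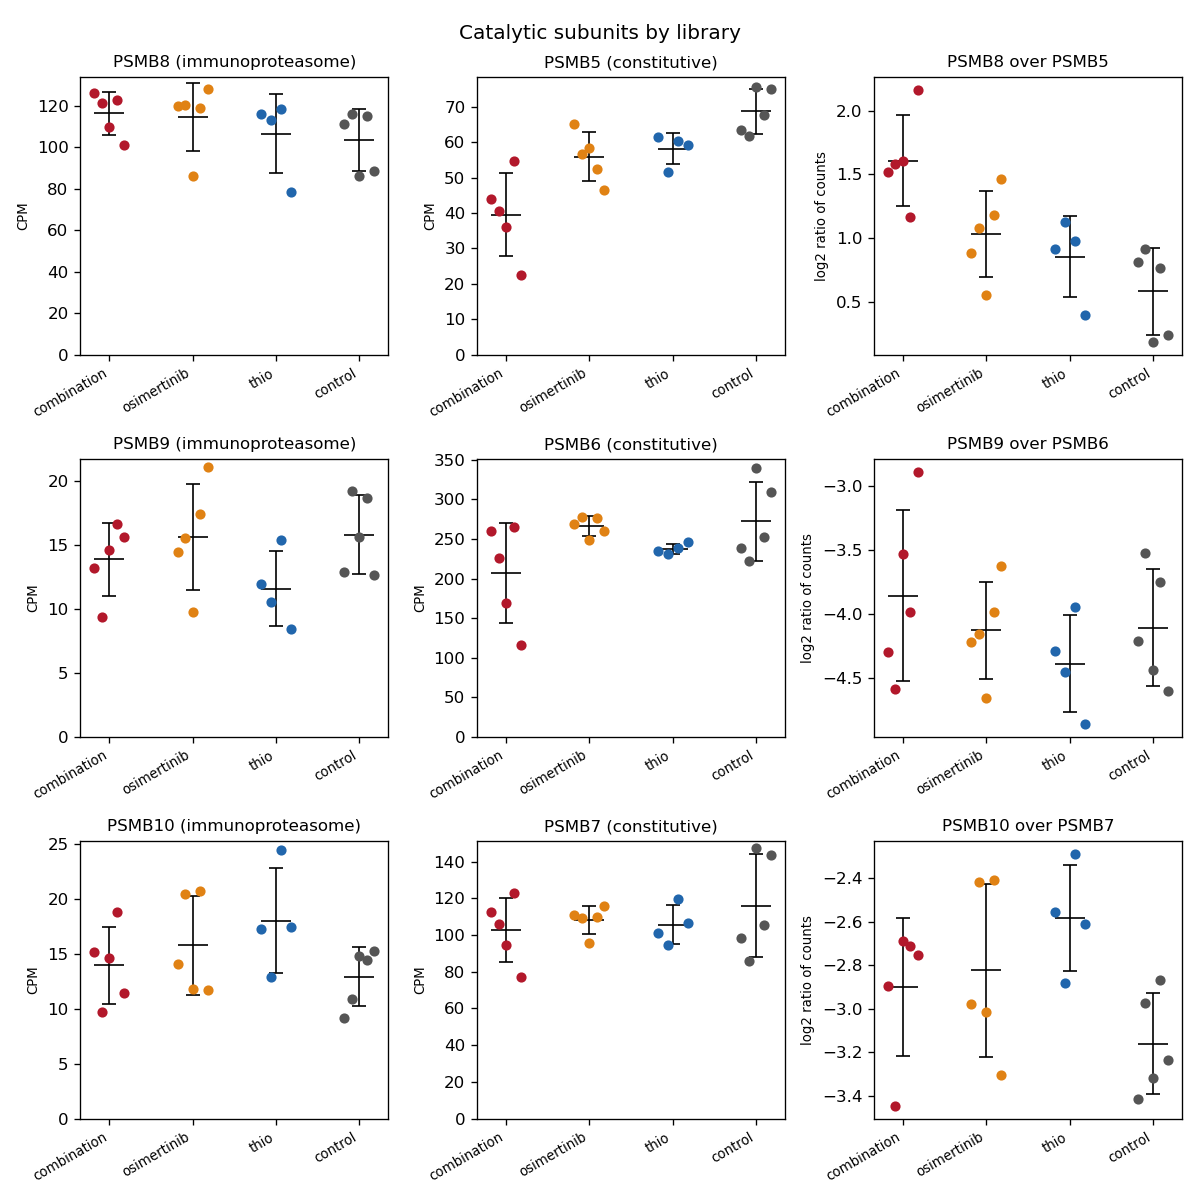
CPM of the 3 immunoproteasome genes (left column), of the constitutive genes they replace (middle column) and the log2 ratio of their counts (right column), 1 point per library, with the group mean and SD as bars. The PSMB8 to PSMB5 ratio of every combination library (1.17 to 2.17) lies above that of every control library (0.18 to 0.91), while PSMB8 itself overlaps in all groups.

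With osimertinib alone, 0 of 46 members was called against control by edgeR, where 4.16% of all genes were called (2.7% higher and 1.46% lower). DESeq2 called 0 members as well, where 4.51% of all genes were higher and 2.68% lower. The same held for limma voom, where 5.72% were higher and 3.43% lower. An unadjusted p under 0.05 was given to 0 members by edgeR, 1 by DESeq2 and 4 by limma voom. The median was -0.07 over the members and 0.02 over all genes, and 36 of 46 members were negative. The smallest p values were those of PSMG2 (0.19 ± 0.10, adjusted p = 0.286) and PSMA1 (0.21 ± 0.11) on the higher side, and of PSMB5 (-0.30 ± 0.16, adjusted p = 0.313), PSMD7 (-0.18 ± 0.10) and PSMC3 (-0.29 ± 0.16) on the lower side. No member lay above all controls and 1 lay below them (3.75% and 2.1% of all genes). It was PSMD7, which had 203, 207, 200, 189 and 197 CPM in osimertinib, against 211, 210, 228, 230 and 248 CPM in control libraries. For every member, 2 SE around its value stayed within 0.72 of 0, and smaller changes were not resolved, at an SE of 0.13 for the median member.

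With 6-thio-dG alone, 1 of 46 members rose and 1 fell, where 9.27% of all genes rose and 4.63% fell (13.9% in all). Every thio library lay below every control for 4 members (8.70%, against 5.29% of all genes) and above for 0 (7.21%). PSMA6, an alpha subunit, had 46.8, 25.0, 82.0 and 34.0 CPM in the thio libraries, against 22.5, 26.8, 27.8, 30.3 and 21.6 CPM in control libraries. Thio 2 lay within the control range and thio 3 stood highest. The log2 fold change was 0.86 ± 0.22 (adjusted p = 0.0149), and 0.45 (adjusted p = 0.119) without thio 3. PRORP, the gene next to PSMA6, moved with it, with 15.7, 7.89, 22.3 and 10.4 CPM in thio and 6.44 to 8.69 CPM in control libraries (0.93 ± 0.23, adjusted p = 0.0113). The highest library of both genes was thio 3, and how the counting divided reads between these neighbours was not tested. PSMD4, the ubiquitin receptor of the 19S particle, had 225, 228, 242 and 179 CPM in thio, against 292, 255, 319, 273 and 312 CPM in control libraries. These groups did not overlap (-0.41 ± 0.12, adjusted p = 0.0262), and the call was lost without thio 1, thio 4, control 3 or control 5. Fitted on the thio and control libraries alone, neither gene was called (adjusted p = 0.0893 for PSMA6 and 0.0631 for PSMD4).

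Set against osimertinib alone, the combination tumours had 5 of 46 members lower (10.9%) and none higher, where 7.66% of all genes fell and 8.09% rose (15.8% in all). They were PSME3 (-0.54 ± 0.13, adjusted p = 0.0174), PSMD11 (-0.43 ± 0.12), PSMD10 (-0.45 ± 0.14), PSME4 (-0.44 ± 0.14) and PSMB5 (-0.50 ± 0.16, adjusted p = 0.0422). Of these 5, PSMD10 alone did not overlap. All combination libraries lay below all osimertinib libraries for 4 of 46 members (8.70%, against 3.95% of all genes) and above for 0 (4.63%). PSMD10 had 38.8, 41.4, 33.9, 37.7 and 21.6 CPM in combination, against 46.6, 46.5, 56.5, 43.2 and 45.0 CPM in osimertinib libraries. All 5 calls were lost when combination 3, combination 5 or osimertinib 3 was left out, and with the mitochondrial share as a covariate. PSMB6, PSMB7, PSME1, PSME2 and the 3 immunoproteasome genes lay between -0.36 and 0.02 and were not called.

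Set against 6-thio-dG alone, 17 members fell (37.0%) and 3 rose in the combination tumours, where 22.9% of all genes fell and 21.2% rose (44.2% in all). The 3 that rose were chaperones of 20S assembly, and for each of them every combination library lay above every thio library, which held for 16.2% of all genes. All combination libraries lay below all thio libraries for 11 members (23.9%), against 16.8% of all genes. PSMG4 had 45.0 to 70.6 CPM in combination and 38.7, 43.9, 35.01 and 38.8 CPM in thio libraries (0.60 ± 0.15, adjusted p = 0.00322). PSMG3 had 52.5, 62.8, 58.2, 57.8 and 65.7 CPM in combination, against 42.3, 43.1, 34.1 and 47.3 CPM in thio libraries (0.51 ± 0.14, adjusted p = 0.00605). PSMG2 followed at 0.34 ± 0.10 (adjusted p = 0.0107). PSMG3-AS1, an antisense gene named for PSMG3, was at 1.05 ± 0.27 in the same comparison (adjusted p = 0.00375), and the library kit does not mark the strand. In the same edgeR fit against control, PSMG3-AS1 was at 0.11 ± 0.24 in combination (adjusted p = 0.718) and at -0.93 ± 0.26 in thio (adjusted p = 0.0244).

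The members that fell against thio were led by PSME4 (-0.81 ± 0.15, adjusted p = 3.80e-04), PSMA6 (-1.17 ± 0.22) and PSMD2 (-0.89 ± 0.19). PSME4 had 62.2 to 87.4 CPM in combination and 137, 126, 124 and 126 CPM in thio libraries, with no overlap. PSMA6 had 19.1, 19.5, 19.2, 25.3 and 21.4 CPM in combination, so combination 4 lay above thio 2. PSMB5 fell as well (-0.55 ± 0.17, adjusted p = 0.0121), and so did PSME1 (-0.43 ± 0.16, adjusted p = 0.0385). PSMB6, PSMB7, PSME2 and the 3 immunoproteasome genes were not called. Of the members lower in combination, 13 were shared between the 18 called against control and the 17 called against thio, which is 72.2% and 76.5% of these sets; both use the same combination libraries. Without combination 3, combination 5 and thio 3, 5 of 46 members fell and none rose, where 10.6% of all genes fell and 9.11% rose. The members' share lower was then near that of all genes. Among the 5 were PSME4 (-0.71, adjusted p = 0.0117), PSMA6 (-0.73), PSMD2 (-0.63) and PSME3 (-0.46). With the mitochondrial share as a covariate 0 members were called.

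**Figure D5:**
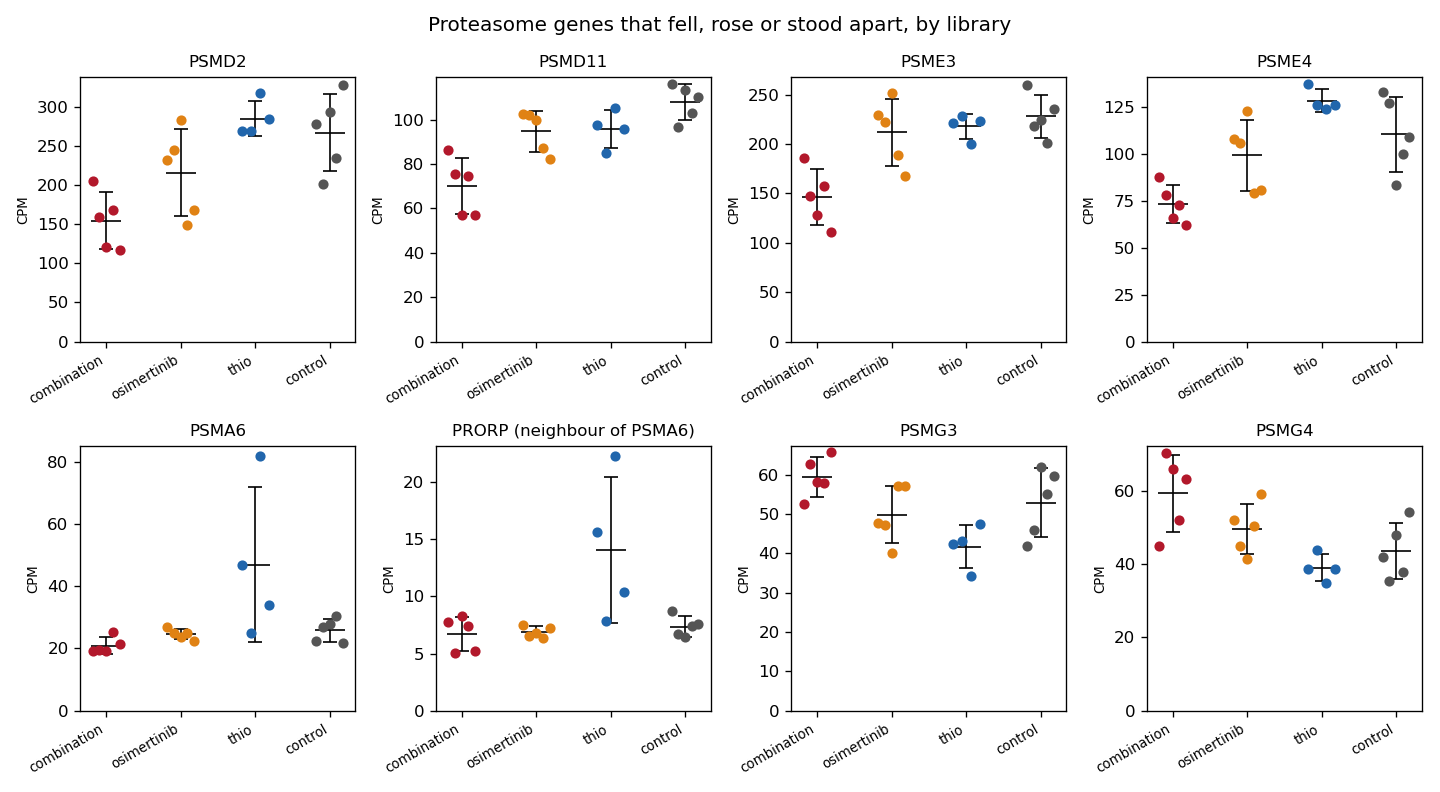
CPM of PSMD2, PSMD11, PSME3, PSME4, PSMA6, PSMG3 and PSMG4 and of PRORP, the neighbour of PSMA6, 1 point per library, with the group mean and SD as bars and every axis starting at 0. Combination is lowest for the 4 genes of the upper row, thio 3 is highest for PSMA6 (82.0 CPM) and PRORP (22.3 CPM), and combination lies above thio for PSMG3 and PSMG4.

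Scaling affected the balance of these calls. Upper-quartile scaling moved the median of all genes by 0.11 in combination against control, 0.18 in combination against thio and 0.14 in the interaction. Relative to the median of all genes, the members' median was -0.28 under upper-quartile and -0.27 under TMM scaling in combination against control, and -0.23 under both in combination against thio. The calls became 3 higher and 14 lower of 46 members against control, where 31.1% of all genes were higher and 18% lower. Against thio they became 7 higher and 7 lower, where 29.4% of all genes were higher and 15.5% lower. The members' share lower against thio was then near that of all genes. Of all calls, 63.4% were higher against control (52.7% with TMM), 65.5% against thio (48.1%), 64.8% against osimertinib (51.4%), 55.6% in thio against control (66.7%) and 57.3% in the interaction (35.9%).

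The interaction asks whether the combination differed from the sum of the 2 single-agent effects on the log2 scale. No member was called (3.45% of all genes were, 1.24% higher and 2.21% lower), and 6 had an unadjusted p under 0.05. DESeq2 called 3 members, 1 higher and 2 lower, where 5% of all genes were higher and 5.52% lower. Limma voom called 4, 1 higher and 3 lower, where 6.9% of all genes were higher and 9.88% lower. PSMA6 was closest, at -1.09 ± 0.31 (adjusted p = 0.0501). It was called by DESeq2, by limma voom, with a robust estimate of the dispersion and with no filter on low counts. Next were PSME4 (-0.66 ± 0.21, adjusted p = 0.0665), PSMG3 (0.59 ± 0.19, adjusted p = 0.0691) and PSME3 (-0.47 ± 0.19). DESeq2 and limma voom also called PSME4 and PSMG3, and limma voom called PSME3. PSMB5 was at -0.25 ± 0.23 (adjusted p = 0.492), PSMB8 at -0.02 ± 0.20 and PSMB9 at 0.28 ± 0.29. The PSMA6 value without thio 3, combination 3 and combination 5 was -0.64 (adjusted p = 0.287).

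The members did not vary as 1 block across the 19 libraries. Of the 43 constitutive members, PSMC3 (Pearson's r = 0.94), PSMB5 (0.93), PSMB6 (0.93) and PSMD8 (0.91) lay closest to the mean log2 CPM of the other 42. PSMG4 (-0.47), PSMG2 (-0.45), PSMG3 (-0.33), PSMA2 (-0.31) and PSMA1 (-0.31) had negative coefficients. These coefficients describe libraries that share 4 treatments and differ in depth, and they carry no test. Among the 5 genes whose levels were most like those of PSMB9 across the 19 libraries were NLRC5 (0.77), the transactivator of class I MHC genes, CNIH4, PDGFA and DHX58 (0.75), and 3 of these 5 were also among the first 5 by Spearman's rho. Among members, PSME2 was most like PSMB9 (0.75) and PSMB8 was at 0.49.

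Genes that work with the proteasome were read from short lists. Of 13 genes for ubiquitin and the factors that carry tagged proteins to the proteasome, 12 fell and 1 rose in combination against control, where 23.1% of all genes fell and 25.7% rose, with a median of -0.53 against 0.02 over all genes. The shuttle factors UBQLN4 (-0.84 ± 0.14, adjusted p = 1.44e-04) and RAD23B (-0.81 ± 0.19) and the segregase VCP (-0.64 ± 0.15) led them, and UFD1, a cofactor of VCP, rose (0.30). Of 11 proteasome partners outside the rule, 5 fell and 1 rose (23.1% and 25.7% of all genes), 4 were positive, and the median was -0.05. Among those that fell were the deubiquitinase UCHL5 (-0.51 ± 0.13) and the scaffold ECPAS (-0.55 ± 0.16), and SEM1, the smallest 19S subunit, rose (0.45 ± 0.14, adjusted p = 0.0135).

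NFE2L1, the transcription factor that induces proteasome genes when the proteasome is impaired, had 185, 147, 170, 183 and 174 CPM in combination, 199, 213, 240, 169 and 210 CPM in osimertinib, 278, 244, 359 and 241 CPM in thio, and 269, 275, 222, 290 and 244 CPM in control libraries. Combination lay below control in every library (-0.60 ± 0.13, adjusted p = 9.64e-04), and it was the only gene called among the 6 of that list in this comparison. In thio against control, NFE2L1 was not called, and NFE2L2 (0.60 ± 0.15) and MAFK (0.68 ± 0.19), the related factor and a partner of both, were the 2 of the 6 that rose, where 9.27% of all genes rose.

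Genes of interferon signalling are those that raise immunoproteasome genes in other settings. In combination against control, 10 of 16 response genes fell and none rose (23.1% and 25.7% of all genes), with a median of -0.81. TAP1, which carries proteasome products into the endoplasmic reticulum and lies beside PSMB9, had 35.2, 26.6, 26.2, 31.9 and 24.6 CPM in combination, against 40.2, 63.3, 43.1, 62.2 and 35.8 CPM in control libraries, with no overlap (-0.76 ± 0.19, adjusted p = 0.00357). Of 13 class I genes, 4 fell, against 23.1% of all genes, and 1 rose, against 25.7%, so the share lower was near that of all genes. The trimming enzyme ERAP2 rose (0.77 ± 0.19), while its relative ERAP1 fell (-1.09 ± 0.24). IFNGR1, a chain of the interferon gamma receptor, fell in combination (-1.27 ± 0.23) and in osimertinib (-0.87 ± 0.23, adjusted p = 0.0352) and rose in thio (0.94 ± 0.24, adjusted p = 0.0144). In thio against control, GBP2 (1.38 ± 0.31) was the only 1 of the 16 response genes called, where 9.27% of all genes rose, and the list had a median of 0.14 with 6 genes negative.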

How the data were processed

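RNA of 19 tumours was sequenced after poly-A selection, and the kit keeps no strand information, per the labels' protocols. Per the submitters' processing notes, the authors used FastQC, Trimmomatic, STAR and the human build hg38. How reads were counted, on which annotation, and how mouse reads were handled was not given in the sources used here. Labels name the mouse as organism, while the deposited symbols are human. The deposited values are raw counts per gene symbol, and columns not used numbered 0.

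For the main test, edgeR 4.0.16 ran in R 4.3.3. Its filterByExpr (minimum of 10 counts, minimum total of 15) left 16704 genes, which hold 99.8% or more of the counts in every library. TMM scaling was followed by a quasi-likelihood fit with a mean for each group over 19 libraries, and 5 pairwise comparisons and the interaction were tested. Benjamini-Hochberg adjustment ran over these 16704 genes, and genes with an adjusted p below 0.05 count as called. Log2 CPM used a prior count of 2, and ratios of counts an added count of 0.5. A count of 0 allows 3 counts, or 0.0807 to 0.189 CPM, which covers counting error only.

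The members and lists were chosen with earlier results of these data known. The text names PSMB5 to PSMB10, PSME1 and PSME2, up to 12 called members with the smallest p in each direction (3 if none was called), up to 4 genes per list, and NFE2L1 and TAP1; some genes that the rule names are not reported here. PRORP, the antisense genes, UFD1 and the other members named were chosen after their values were seen. Replicates were numbered by order of deposition. The fit was tested on simulated data. Alternatives used DESeq2 1.42.0 and limma 3.58.1, other scalings and filters, the 2 groups alone, the mitochondrial genes as covariate or removed, and libraries left out. A robust dispersion estimate was run first and replaced by the default, and is kept as an alternative. Python 3.11.15 with matplotlib 3.10.9 drew the figures. Human gene lengths, positions and sequences were not used here, so levels are not compared between genes.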

Additional observations from a re-analysis of the deposited data

Results flagged for a closer look

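Of 184 pairs of a tested member and a group, 8 had 1 library that stood apart from the rest of its group by Dixon's test, which chance alone gives in about 1 of 20 groups. In combination 5, PSMB1, a structural beta subunit, was at 64.5 CPM against 90.1 to 98.1 CPM in the other combination libraries, and PSMD6, a lid subunit, at 45.6 CPM against 63.9 to 66.1 CPM. PSMB8 was low in osimertinib 3 (85.8 CPM, against 119 to 128 CPM in the others of its group) and in thio 4 (78.1 CPM, against 113 to 119 CPM). PSMC6 was low in osimertinib 2 (80.3 CPM, against 91.5 to 93.1 CPM) and PSMD1 in osimertinib 4 (108 CPM, against 135 to 142 CPM). PSMD10 was high in osimertinib 3 (56.5 CPM, against 43.2 to 46.6 CPM) and PSMG2 in control 5 (24.8 CPM, against 22.8 to 23.2 CPM).

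The interaction, which asks whether the effect of 6-thio-dG differed with and without osimertinib, was called for 4 genes of the pathway lists beside the proteasome, at adjusted p values close to the threshold. UBQLN1, a shuttle factor for tagged proteins, was at -0.83 ± 0.23 (adjusted p = 0.0497), IFNGR1 at -1.34 ± 0.33 (adjusted p = 0.0393), IFNGR2, the other chain of that receptor, at -1.01 ± 0.27 (adjusted p = 0.0476) and GBP1, a GTPase raised by interferon gamma, at -1.92 ± 0.53 (adjusted p = 0.0491), by edgeR with Benjamini-Hochberg adjustment. IFNGR1 had 28.7, 22.7, 24.5, 25.0 and 18.3 CPM in combination, 29.0, 34.7, 28.6, 25.9 and 39.5 CPM in osimertinib, 137, 64.5, 157 and 82.2 CPM in thio, and 49.7, 84.2, 44.9, 69.7 and 39.1 CPM in control libraries. The highest library of GBP1 (357 CPM), IFNGR1, IFNGR2 (170 CPM) and UBQLN1 (225 CPM) was thio 3, and 0 genes were called in the interaction without thio 3, combination 3 and combination 5 together. Over all genes tested, 0 were called also when combination 3, combination 5, osimertinib 2, thio 1 or control 3 alone was left out, and with the mitochondrial share as a covariate.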

How the results depend on the processing

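No paired analysis was possible because the labels give the groups no shared replicate numbers. The 18 decreases and 2 increases of members in combination against control were 20 calls, and 15 to 23 calls under 10 of 12 other settings. With the mitochondrial share as a covariate, 0 members were called in combination against control, osimertinib or thio (542, 3 and 191 genes), 5 in thio against control (3516 genes), 322 genes in osimertinib against control, and 0 genes in the interaction. Without combination 3, combination 5 and thio 3, the members called were 11 in combination against control, 0 against osimertinib, 5 against thio and 1 in thio against control (4815, 6, 3294 and 930 genes), with 1228 genes in osimertinib against control and 0 in the interaction. In combination against osimertinib, members numbered 2 with no filter, 1 in the fit of the 2 groups and 16 (5327 genes) by limma voom. In thio against control they numbered 1 with no filter, 0 (823 genes) in the fit of the 2 groups and 1 without the 2 libraries whose title numbers stand apart. In osimertinib against control, DESeq2 called 1201 genes, limma voom 1528 and the fit without these 2 libraries 401. In the interaction, DESeq2 called 3 members (1757 genes), limma voom 4 (2802 genes), and no filter and robust dispersion 1 each. The interaction needs all 4 groups, so no fit of 2 groups exists for it. Of the 5 genes most like PSMB9, 3 remained by Spearman's rho. The causes were not tested.

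Leaving out each library in turn gave 220 to 890 genes in osimertinib against control, 731 to 2723 genes and 1 to 2 members in thio against control, 457 to 4692 genes and 0 to 12 members in combination against osimertinib, and 0 to 2153 genes and 0 to 4 members in the interaction. In combination against osimertinib, 0 members remained without combination 3, combination 5 or osimertinib 3 and 12 were called without combination 1. The interaction had 0 genes without combination 3, combination 5, osimertinib 2, thio 1 or control 3, and 2153 without combination 1.

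Reversed signs, in log2 fold change, concern values that were not called in the report, except PSMB5 and PSME1 in combination against thio. With the mitochondrial covariate, combination against control had PSMB6 at 0.067, PSMB7 at 0.043 and PSME1 at 0.11, osimertinib against control had PSMB6 at 0.165 and PSME1 at 0.15, and combination against osimertinib had PSMB7 at 0.054. With it, combination against thio had PSMB5 at 0.071, PSMB6 at 0.35, PSMB7 at 0.22, PSME1 at 0.10 and PSME2 at -0.093, and the interaction had PSMB5 at 0.17, PSMB6 at 0.19, PSMB8 at 0.051 and PSME2 at -0.032. With upper-quartile scaling, PSME2 was at 0.075 in combination against control, and PSMB6, PSMB9, PSME1 and PSME2 at 0.0014, 0.028, 0.0032 and 0.030 in osimertinib against control. With it, PSMB8 was at -0.024 in thio against control, PSME2 at 0.045 in combination against osimertinib, PSMB7 at 0.14 in combination against thio and PSMB8 at 0.11 in the interaction. Without combination 3, combination 5 and thio 3, PSMB8 and PSME1 were at -0.026 and -0.033 in thio against control, PSMB7 at 0.076 in combination against osimertinib, and PSMB6 and PSMB7 at 0.073 and 0.17 in combination against thio. There, PSMB5, PSMB6 and PSMB8 were at 0.0092, 0.13 and 0.14 in the interaction. With limma voom, PSMB6 was at 0.032 in osimertinib against control, PSME2 at 0.021 in combination against osimertinib, PSMB7 at 0.077 in combination against thio and PSMB8 at 0.0069 in the interaction. Without the 2 libraries with title numbers apart, PSMB6 was at 0.026 in osimertinib against control, PSMB8 at -0.010 in thio against control, PSME2 at 0.032 in combination against osimertinib, and PSMB7 and PSMB8 at -0.0015 and 0.074 in the interaction. With the stricter filter PSME2 was at 0.0027 in combination against control and 0.0075 against osimertinib, and with no filter PSMB8 was at -0.010 against osimertinib. In the interaction PSMB8 was at 0.0038 with RLE scaling and 0.0041 by DESeq2.

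With single libraries left out, combination against control ranged from -0.093 to 0.013 for PSME2 and -0.019 to 0.22 for PSMB10. Osimertinib against control ranged from -0.15 to 0.11 for PSMB9, -0.072 to 0.087 for PSME2, -0.097 to 0.060 for PSMB6 and -0.19 to 0.0021 for PSMB7. Thio against control ranged from -0.019 to 0.16 for PSMB8 and -0.024 to 0.19 for PSME1. Combination against osimertinib ranged from -0.067 to 0.069 for PSMB8, -0.13 to 0.032 for PSME2 and -0.15 to 0.011 for PSMB7, and combination against thio from -0.11 to 0.043 for PSMB7 and -0.031 to 0.18 for PSME2. The interaction ranged from -0.041 to 0.17 for PSMB7, -0.27 to 0.0034 for PSMB6, -0.14 to 0.043 for PSMB8 and -0.034 to 0.21 for PSME2.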

Other observations

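PSMA3-AS1, an antisense gene named for PSMA3, had 71.0, 127, 140, 96.9 and 165 CPM in combination, 63.2, 51.5, 44.9, 74.1 and 95.0 CPM in osimertinib, 61.3, 60.4, 51.3 and 53.6 CPM in thio, and 51.7, 59.0, 47.9, 56.1 and 54.5 CPM in control libraries. Every combination library lay above every control, and edgeR gave a log2 fold change of 1.15 ± 0.20 (adjusted p = 2.13e-04). Within the combination group its libraries had the same order as by mitochondrial share, from combination 1 (11.0%) to combination 5 (30.2%). The part of that share in the difference from control was not tested. PSMA3, an alpha subunit, was at -0.04 ± 0.12 in the same comparison (adjusted p = 0.777), with 54.7 to 75.1 CPM in combination and 56.9 to 79.8 CPM in control libraries. PSMD6-AS2, named for PSMD6, also rose (0.96 ± 0.23, adjusted p = 0.00252), and PSMB8-AS1 was at 0.44 ± 0.20 (adjusted p = 0.0806). Since the kit does not mark the strand, reads of a gene and of its antisense partner cannot be told apart where they overlap. The antisense genes were chosen by name after the member values were seen.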
